A study of Homo sapiens with 9 samples.

Results

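Versican and 8 other core proteoglycan genes were examined in U251 cells, a human glioblastoma line, with and without knockdown of the RNA-binding protein Musashi1 (gene MSI1). The 9 genes are VCAN, BGN, DCN, GPC1, GPC4, GPC6, SDC1, SDC2 and CSPG4, taken by name from a table of 20848 genes. The choice was made with earlier results of these data known. Of the 9 genes, 8 had enough reads to be among the 13856 genes tested, and DCN did not. Of the RNA-seq samples 3 were controls, which the labels call WT or wild type, and 3 carried the label Msi1 KD. The 3 other samples were control cells used for iCLIP, in which ultraviolet light fixes a protein to the RNA it touches and the crosslinked base is read out, with a monoclonal antibody against MSI1. All 9 samples come from U251, a single cell line, and neither the knockdown method nor the treatment of the controls is stated in the labels. No iCLIP sample of knockdown cells or of a control antibody was analysed here.

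A proteoglycan is a core protein that carries long sulfated sugar chains called glycosaminoglycans. Versican is a large chondroitin sulfate proteoglycan of the extracellular matrix that binds hyaluronan and is known for its presence in the matrix of gliomas. Biglycan and decorin are small leucine-rich matrix proteoglycans, glypicans are heparan sulfate proteoglycans tethered to the membrane by a lipid anchor, and syndecans and CSPG4 (also called NG2) span it. The middle of the versican core protein is encoded by a pair of very long exons, GAG-alpha and GAG-beta, which hold the attachment sites of the sugar chains and are kept or skipped by alternative splicing.

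Gene counts summed to between 32919299 and 47277016 per RNA-seq library, and the iCLIP lists held 1746795, 145718 and 208722 sites in replicates 1, 2 and 3. MSI1 was at 16.0, 17.7 and 7.59 CPM (read counts scaled to a common library size, after TMM normalisation) in control replicates 1, 2 and 3. It was at 3.15, 5.11 and 2.26 in the knockdown replicates, with no overlap between the groups. Its log2 fold change was -1.97 (edgeR adjusted p = 0.0699, and 0.00279 in the fit blocked by replicate number). Without control replicate 3 it was -2.21 (edgeR adjusted p = 0.000372). The glial and stem cell markers VIM and NES were high in the controls, at 2579 and 759 CPM, and GFAP was at 65.2, whereas the astrocyte markers AQP4 and ALDH1L1 were near 0. Markers that define leukocytes were at or near 0 (PTPRC, CD3E), as was the endothelial marker PECAM1. The fibroblast list was dominated by COL1A2, at 1228 CPM in the controls, while LUM was near 0. Markers within a list did not move together. SOX2, a stem cell factor, was called lower in the knockdown (152 and 89.9 CPM, edgeR adjusted p = 0.0432), and SLC1A3 had means of 12.6 and 22.4 CPM (edgeR adjusted p = 0.0756). Among the fibroblast genes COL1A1 had means of 47.7 and 123 CPM, PDGFRB 3.54 and 6.64, and PDGFRA 383 and 301, none of which passed in the unblocked test. With the block COL1A1, PDGFRB, PDGFRA and SLC1A3 passed (edgeR adjusted p = 0.0155, 0.0257, 0.0213 and 0.013), as did 17.3% of all tested genes, but COL1A2 did not (0.989). Without control replicate 3, COL1A1 and SLC1A3 passed (edgeR adjusted p = 0.0106 and 0.00366), whereas PDGFRB and PDGFRA did not (0.0927 and 0.437). The labels do not tie replicates to separate cultures, and the p-values below therefore refer to the scatter of these samples alone, part of which may be technical.

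The library of control replicate 3 was unlike the rest. It lay at 80.6 on the first principal component, which held 62.5% of the variance, and the other 5 libraries lay between -40.9 and 10.4. The deviation of this library from the other controls fell with the GC content of the transcript (Spearman's rho -0.86 across 12067 genes, a description, since genes are not independent replicates), and that of knockdown replicate 3 did likewise (rho -0.76). The proteoglycan genes divided along this property. GPC1 (66.7% GC), CSPG4 (63.5%), BGN (61.2%) and SDC1 (60.1%) were in control replicate 3 at 10.8%, 48.3%, 23.0% and 47.5% of the mean of the other controls. VCAN (42.9% GC), GPC4 (44.8%), GPC6 (41.6%) and SDC2 (43.9%) were at 103%, 114%, 114% and 117% of it. For the 8 tested proteoglycan genes the log2 fold change is therefore given with and without this library. The control levels per kilobase of all 9 genes are given both ways too.

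**Figure D1:**
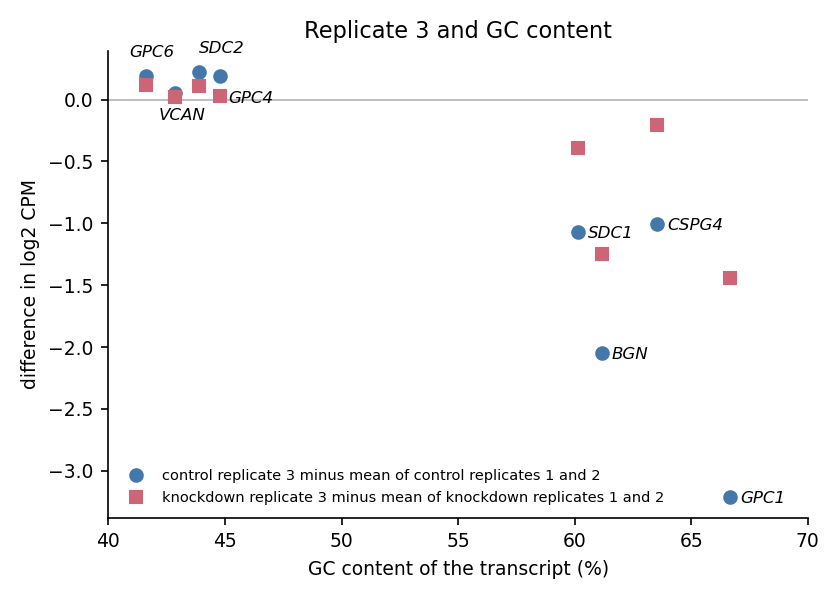
The horizontal axis gives the GC content of the transcript in percent and the vertical axis the difference in log2 CPM between replicate 3 and the mean of replicates 1 and 2 of the same group, for the 8 tested genes. Genes near 42 to 45% GC lie near 0 in both groups, whereas GPC1, at 66.7% GC, lies at -3.21 in the controls and -1.44 in the knockdown.

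By level per kilobase of exon, the only scale used here to compare genes with each other, the controls ranked GPC4 first (mean 54.9 CPM per kb), then SDC1 (54.2), GPC1 (24.8), SDC2 (23.3), VCAN (8.97), GPC6 (7.38), BGN (0.986), CSPG4 (0.225) and DCN (0.0434). The ranges of neighbours over the 3 control libraries were separate between SDC2 and VCAN, between GPC6 and BGN, and between CSPG4 and DCN, and overlapped for the other pairs of neighbours. Within libraries, SDC1 was above GPC1, VCAN above GPC6 and BGN above CSPG4 in 3 of 3 controls, GPC1 above SDC2 in 2 of 3, and GPC4 above SDC1 in 1 of 3, which was control replicate 3. Without that library SDC1 ranked first (mean 65.7 CPM per kb), then GPC4 (52.4), GPC1 (35.2), SDC2 (22.1), VCAN (8.89), GPC6 (7.05), BGN (1.33), CSPG4 (0.272) and DCN (0.0279). In the knockdown VCAN averaged 19.5 CPM per kb and GPC6 7.64.

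**Figure D2:**
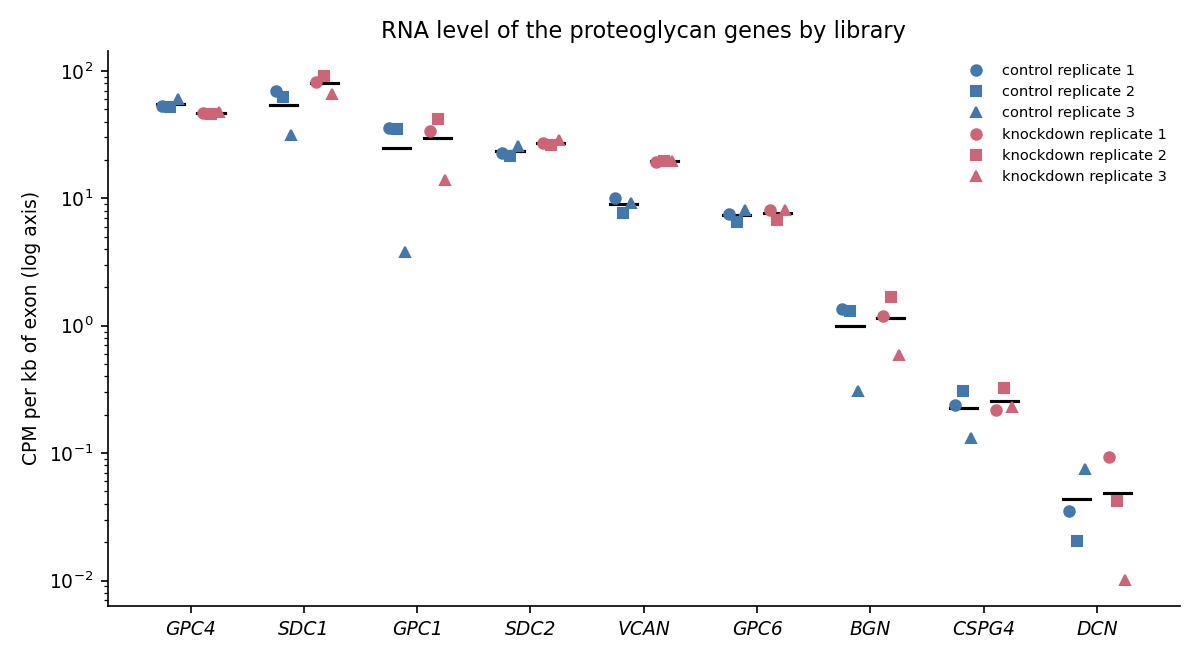
The vertical axis gives CPM per kb of exon on a log scale for the 9 genes, ordered by their mean in the controls, with a symbol for each library and a bar at the group mean. The 3 knockdown values of VCAN, from 19.4 to 19.7, lie above all 3 control values, while GPC1, BGN, SDC1 and CSPG4 have their lowest control value in replicate 3.

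Versican RNA was higher in every knockdown library. VCAN (chr5:82803249-82913878, plus strand, hg18, 15 exons) was at 125, 95.8 and 114 CPM in control replicates 1, 2 and 3 and at 241, 241 and 245 CPM in the knockdown replicates. The knockdown values lay within a narrow band and did not overlap with the more scattered controls. The mean rose from 111 ± 14.6 to 242 ± 2.38 CPM (SD, n = 3 each), a ratio of means of 2.18. Raw counts were 3650 to 5647 reads in the controls and 9207 to 10242 in the knockdown, in libraries of unequal depth. More cells that make a transcript and more of it per cell cannot be told apart in bulk libraries such as these. In edgeR's quasi-likelihood test the log2 fold change was 1.12 (SE 0.14, Benjamini-Hochberg adjusted p = 0.0149 over all tested genes). Of the 8 tested proteoglycan genes only VCAN, that is 1, passed the threshold of 0.05, against 1.67% of all tested genes (232 of 13856, with 0.772% higher and 0.902% lower).

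The size of the VCAN difference moved little between settings. Over 12 alternatives, its log2 fold change lay between 1.02 and 1.26, and it passed the threshold of 0.05 in 7 of them. Without control replicate 3 it was 1.20 (edgeR adjusted p = 0.000572), whereas leaving out any of the other 5 libraries in turn ended the call, with edgeR adjusted p from 0.0721 to 0.122 and log2 fold changes from 1.02 to 1.21. Several marker genes had higher means in the knockdown with no overlap between the groups, as did VCAN and 8.73% of all tested genes. They were COL1A1 (2.58 times the control mean), the neuronal gene SNAP25 (2.04 times), PDGFRB (1.88 times), the glial gene SLC1A3 (1.78 times) and KDR, the receptor for VEGF (1.68 times). SOX2 (0.592 times) and PDGFRA (0.784 times) were lower without overlap, as were 14.1% of all tested genes. The groups overlapped for SYT1 (1.08 times) and COL1A2 (0.997 times), the most abundant genes of the neuronal and fibroblast lists. By summed level only the list of 4 endothelial genes was separate between the groups and higher, at 13.4 to 14.5 CPM in the controls and 21.9 to 25.4 in the knockdown, mostly KDR, with PECAM1 and CDH5 at most 0.249 CPM on average. The part of any of these in the VCAN result was not tested.

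The 5 tested genes whose log2 CPM followed VCAN most closely over the 6 libraries were PEG10 (Pearson's r 0.9997), FUBP1 (0.998), AKR1C3 (0.996), JAGN1 (0.996) and BOLA3 (0.995). They were picked for this likeness out of all tested genes, so the correlations are a description. PEG10, an imprinted gene derived from a retrotransposon, was itself called, at 1341 ± 161 CPM in the controls and 2817 ± 47.7 in the knockdown (SD, n = 3 each, log2 fold change 1.07, edgeR adjusted p = 0.0149). The other 4 did not pass, with edgeR adjusted p from 0.0514 for BOLA3, a factor in mitochondrial iron-sulfur cluster assembly, to 0.167 for FUBP1, a nucleic-acid-binding protein. Among the proteoglycans the correlation with VCAN was 0.83 for SDC2, 0.61 for SDC1 and -0.83 for GPC4, with BGN, GPC1, GPC6 and CSPG4 between 0.19 and 0.31.

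Versican isoforms are told apart by how exon 6 and the long exons 7 (GAG-alpha, 2961 nt, chr5:82850924-82853884) and 8 (GAG-beta, 5262 nt, chr5:82868582-82873843) are joined to exon 9. V0 keeps both long exons, V1 only GAG-beta, V2 only GAG-alpha, and V3 skips both. The 6 exon junctions that distinguish them are shown because they are what separates the isoforms in RNA, as 30 bases each from the GENCODE release 29 transcripts (GRCh38), 5′ to 3′. Lower case is the end of the upstream exon and capitals mark the 15 bases that open the downstream exon.
Exon 6 to exon 7, in V0 and V2: cctactgctttaaacCTAAAGAGGCTACAA
Exon 6 to exon 8, in V1: cctactgctttaaacGTCGAATGAGTGATT
Exon 6 to exon 9, in V3: cctactgctttaaacGACCTGATCGCTGCA
Exon 7 to exon 8, in V0: gagaaaataagacagGTCGAATGAGTGATT
Exon 7 to exon 9, in V2: gagaaaataagacagGACCTGATCGCTGCA
Exon 8 to exon 9, in V0 and V1: caatctatttaccagGACCTGATCGCTGCA
The deposited exon counts are per exon and not per junction, so they give how much of the RNA covers each long exon but not which isoform each read came from.

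All 15 versican exons were higher in the knockdown, GAG-alpha and GAG-beta included, with no overlap between the groups for any exon. The ratio of mean exon CPM ranged from 2.15 for exon 3 to 2.94 for exon 4, and was 2.32 for GAG-alpha, 2.22 for GAG-beta and 2.21 for the last exon. Exon CPM was scaled to the total exon counts of each library without TMM, so these ratios are not on the scale of the ratio for the whole gene. The exons of 1 gene come from the same libraries and are not separate evidence of the rise.

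**Figure D3:**
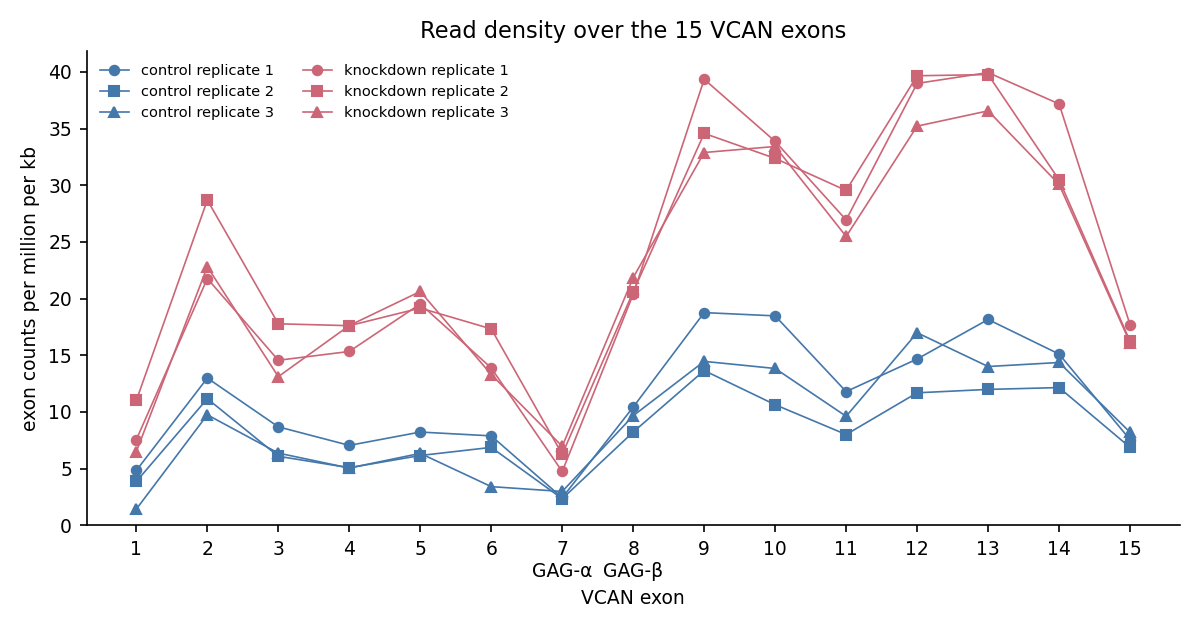
The horizontal axis gives the 15 VCAN exons in transcript order and the vertical axis exon CPM per kb (without TMM), with a line for each library. The 3 knockdown lines lie above the 3 control lines at every exon, and in both groups the density is lowest at exons 1 and 7 (GAG-alpha) and reaches its highest values between exons 9 and 14.

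GAG-beta took most of the versican reads and GAG-alpha few, in both conditions. The GAG-beta exon held 54.6, 53.4 and 54.6% of VCAN exon counts in control replicates 1, 2 and 3 and 52.5, 51.7 and 54.3% in the knockdown. The groups overlapped, although the knockdown library was the lower of each same-numbered pair, with differences of -2.10, -1.66 and -0.226 percentage points. The means were 54.2 ± 0.713 and 52.9 ± 1.34% (SD, n = 3 each, two-sided exact permutation p = 0.2, where 3 against 3 cannot go below 0.1).

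The GAG-alpha exon held 7.16, 8.57 and 9.48% of VCAN exon counts in the controls and 6.89, 8.85 and 9.75% in the knockdown. These ranges nearly coincide, and libraries with the same replicate number lay closer to each other than libraries of the same group. The means were 8.40 ± 1.17 and 8.50 ± 1.46% (SD, n = 3 each, difference 0.093 percentage points, two-sided exact permutation p = 0.8). Leaving out libraries in turn moved this difference to both sides of 0, from -0.53 to 0.90 percentage points, and it was 0.63 without control replicate 3.

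Per kilobase, GAG-alpha had 0.319 ± 0.0539 of the read density of the other 13 exons in the controls and 0.314 ± 0.0719 in the knockdown (SD, n = 3 each, exact permutation p = 0.9). GAG-beta had 1.16 ± 0.0475 times that density in the controls and 1.09 ± 0.0964 times in the knockdown (SD, n = 3 each, exact permutation p = 0.3). Adjusted over the 4 tests on the long exons, the exact permutation p was 0.6 for both GAG-beta measures and 0.9 for both GAG-alpha measures. A change in the use of either long exon was thus not detectable with 3 libraries per group, while the total rose by more than the spread.

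**Figure D4:**
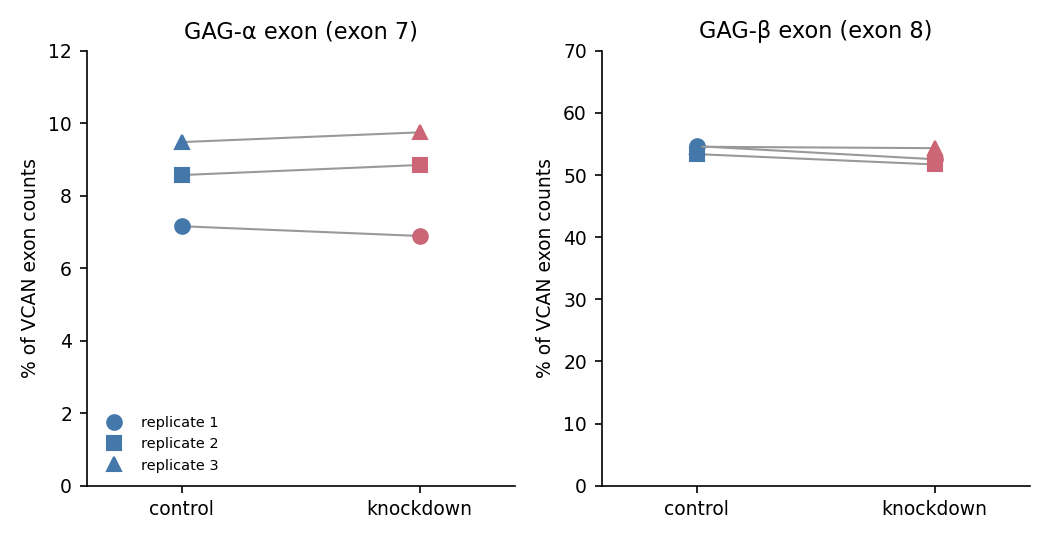
The vertical axes give the share of VCAN exon counts, in percent, that fell in the GAG-alpha exon (left) and the GAG-beta exon (right), with a symbol for each replicate number and a line joining same-numbered libraries. The control and knockdown ranges overlap in both panels, from 6.89 to 9.75% on the left and from 51.7 to 54.6% on the right.

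None of the other versican exons was called either. In edgeR's diffSpliceDGE, which sets each exon against the rest of its gene, 0 of 123109 tested exons passed an adjusted p of 0.05 (0.0% called, and 263 exons, 0.214%, had an unadjusted p under 0.05). That share is far below the 0.05 that evenly spread p-values would give, so the test was conservative here. The lack of a call therefore does not show that an exon kept its share. With the replicate number as a block 10 exons passed (0.00812%), 0 of them in the proteoglycan genes. Of the 80 exons of the 9 genes 61 were tested, 0 had an unadjusted p under 0.05, and the lowest for VCAN was 0.324, at exon 4. Exon 1 of VCAN held 1.69 and 1.67% of the counts in control replicates 1 and 2 but 0.538% in control replicate 3, against 1.30, 1.84 and 1.08% in the knockdown, so the start of the transcript was covered least in both libraries numbered 3.

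The small leucine-rich proteoglycans were scarce. BGN, or biglycan (chrX:152413541-152428198, plus strand), was at 3.29, 3.19 and 0.747 CPM in the controls and 2.94, 4.12 and 1.43 in the knockdown. The groups overlapped, and the lowest value in each was replicate 3. Its log2 fold change was 0.22 (SE 0.58, edgeR adjusted p = 0.914), -0.14 without control replicate 3 and -0.15 without knockdown replicate 2. DCN, or decorin (chr12:90063166-90100937, minus strand), a binder of collagen fibrils, had 4, 2 and 6 reads in the controls and 10, 4 and 1 in the knockdown. It did not pass the filter on low counts, and no difference was detectable at this depth.

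The 3 glypicans differed in level but none passed the test. GPC4 (chrX:132262730-132376871, minus strand) was at 197, 193 and 222 CPM in the controls and 174, 171 and 175 in the knockdown. Every knockdown library was below every control, yet the log2 fold change of -0.24 (SE 0.12) had an edgeR adjusted p of 0.417, and it was -0.11 without control replicate 3. GPC6 (chr13:92677079-93858268, plus strand) was at 53.5, 46.5 and 57.0 CPM in the controls and 57.5, 48.1 and 56.9 in the knockdown. The groups covered the same range, with a log2 fold change of 0.05 (SE 0.15, edgeR adjusted p = 0.926), 0.18 without control replicate 3 and -0.03 without control replicate 2.

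GPC1 (chr2:241023788-241056168, plus strand), the glypican with the highest GC content, was at 131, 129 and 14.01 CPM in the controls and 125, 155 and 51.2 in the knockdown. Replicate 3 was far below the other libraries in both groups, and the groups overlapped. The log2 fold change was 0.27 (SE 0.75, edgeR adjusted p = 0.918) with all libraries -0.18 without control replicate 3 and -0.05 without knockdown replicate 2, so that single libraries set its sign.

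SDC1 and SDC2, the syndecans among the genes, both had higher means in the knockdown, and neither passed the unblocked edgeR test with all libraries and no offset. SDC1 (chr2:20264039-20288675, minus strand) was at 234, 209 and 105 CPM in the controls and 276, 307 and 223 in the knockdown. Control replicate 1 lay above knockdown replicate 3, so the groups overlapped, but knockdown was higher in each same-numbered pair, by 0.24, 0.55 and 1.08 on the log2 scale. The log2 fold change was 0.55 (SE 0.29, edgeR adjusted p = 0.445), it was 0.62 (edgeR adjusted p = 0.0461) with the replicate number as a block, and 0.34 (edgeR adjusted p = 0.272) without control replicate 3. With the block 2 of the 8 genes, VCAN and SDC1, passed, both higher, against 17.3% of all tested genes, or 7.04% higher and 10.3% lower.

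SDC2 (chr8:97575058-97693213, plus strand) was at 79.5, 74.3 and 89.7 CPM in the controls and 94.7, 90.5 and 99.9 in the knockdown. The groups did not overlap, by a narrow margin between control replicate 3 and knockdown replicate 2. The log2 fold change was 0.23 (SE 0.13, edgeR adjusted p = 0.503), 0.37 (edgeR adjusted p = 0.181) without control replicate 3, and 0.35 (edgeR adjusted p = 0.00645) with an offset for GC content, an alternative chosen after seeing the data under which SDC1 passed as well (0.44, edgeR adjusted p = 0.0069). With that offset 20.9% of the 12057 genes that had a GC value and were tested passed, and with the block added 40.4%. The offset was fitted to the same libraries, which the p-values do not take into account.

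CSPG4 (chr15:73753718-73792244, minus strand), a marker of pericytes and of oligodendrocyte precursors, was at 1.97, 2.55 and 1.09 CPM in the controls and 1.81, 2.70 and 1.91 in the knockdown. The groups overlapped, and the log2 fold change was 0.19 (SE 0.35, edgeR adjusted p = 0.877), -0.02 without control replicate 3, -0.01 without knockdown replicate 2 and -0.03 with the GC offset.

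In all, 2 of the 8 tested genes (VCAN and SDC2) had every knockdown library above every control and 1 (GPC4) had every one below, against 8.73% and 14.1% of all tested genes. The median log2 fold change of the 8 genes was 0.22, beside -0.04 for all tested genes. Outside VCAN, the lowest unadjusted p in edgeR's diffSpliceDGE belonged to exon 1 of SDC2, at 0.228, and at 0.0151 with the block, and neither passed adjustment. It held 8.32, 8.69 and 2.57% of SDC2 exon counts in the controls and 8.36, 10.5 and 6.13% in the knockdown, lowest in replicate 3 of each group. The lowest unadjusted diffSpliceDGE p was 0.356 for GPC4 (exon 1), 0.463 for GPC6 (exon 6), 0.532 for BGN (exon 6), 0.667 for SDC1 (exon 2), 0.709 for CSPG4 (exon 10) and 0.849 for GPC1 (exon 6).

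The genes that build, sulfate and cut these proteoglycans were read from 7 lists of 91 genes in all, of which 68 were tested. CHST14 passed the edgeR test in the direction of higher levels and DSE in the direction of lower ones. That was 2.94% of the 68 genes, against 1.67% of all tested genes. The 68 genes had a median log2 fold change of 0.15. With the replicate block 7 passed as higher and 9 as lower, or 23.5% of the 68 against 17.3% of all tested genes. Both calls belong to the list of chondroitin and dermatan sulfate enzymes, in which 15 of 16 genes were tested and 3 passed as higher and 3 as lower with the block.

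CHST14 and DSE act in turn on the same chain. DSE, an epimerase that turns glucuronic acid of chondroitin sulfate into iduronic acid and so makes dermatan sulfate, was at 33.6, 36.4 and 46.2 CPM in the controls and 19.3, 18.9 and 20.1 in the knockdown. All 3 knockdown values were well below the controls, and the log2 fold change was -0.995 (SE 0.17, edgeR adjusted p = 0.042). CHST14, which sulfates the dermatan sulfate that the epimerase makes, was at 16.4, 16.0 and 11.4 CPM in the controls and 31.5, 36.1 and 30.03 in the knockdown. It was higher in every knockdown library, with a log2 fold change of 1.15 (SE 0.20, edgeR adjusted p = 0.040). Without control replicate 3 the log2 fold changes were 1.06 for CHST14 and -0.79 for DSE, with edgeR adjusted p of 0.00192 and 0.00923. Leaving out any of the other 5 libraries ended both calls, with edgeR adjusted p from 0.116 to 0.268. The DSE call was also lost with DESeq2 size factors (edgeR adjusted p = 0.0631) and with no filter on low counts (edgeR adjusted p = 0.0617), where CHST14 still passed.

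No gene of the other 6 lists passed in the unblocked edgeR test with all libraries. In the order below, these lists held 5, 14, 20, 8, 5 and 1 genes tested there. With the block 10 of their genes passed, against 17.3% of all tested genes. The GC offset described above gave 18, against 20.9%. Without control replicate 3, 6 passed, against 1028 of all 14067 genes tested in that setting. Among 5 tested linker enzymes, which build the short sugar stem that joins every such chain to its core protein, the lowest p belonged to B3GALT6, at 26.5 ± 8.88 CPM in the controls and 9.78 ± 1.68 in the knockdown (SD, n = 3 each, log2 fold change -1.44, edgeR adjusted p = 0.0661, and 0.0041 with the block). FAM20B, the kinase that phosphorylates the xylose of that stem, followed (-0.40, edgeR adjusted p = 0.256, and 0.0216 with the block).

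Among 14 tested other proteoglycans the lowest p belonged to SDC4, a further syndecan, at 106 ± 16.9 and 70.3 ± 4.86 CPM (SD, n = 3 each, log2 fold change -0.59, edgeR adjusted p = 0.126, and 0.0144 with the block). TGFBR3, or betaglycan, had a log2 fold change of -0.71 (edgeR adjusted p = 0.26, and 0.0758 with the block). SDC4 thus had the opposite sign from SDC1 and SDC2, and its groups did not overlap.

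Of 20 tested heparan sulfate enzymes, HS3ST1 (3-O-sulfation) had a log2 fold change of 1.15 and HS6ST2 (6-O-sulfation) of -0.61, with edgeR adjusted p of 0.156 and 0.233 (0.00679 and 0.019 with the block). Of the 8 genes for sulfate and sugar donor supply, PAPSS2, which makes the sulfate donor, stood at 0.63 and SLC26A2, a sulfate transporter, at -0.52, with edgeR adjusted p of 0.173 and 0.246 (0.0136 and 0.0449 with the block).

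Of 5 tested ADAMTS proteases that cut versican, ADAMTS4 was at 9.77 ± 3.41 CPM in the controls and 22.0 ± 7.44 in the knockdown (SD, n = 3 each, log2 fold change 1.17, edgeR adjusted p = 0.154, and 0.0114 with the block). ADAMTS15 was at 24.9 ± 8.51 and 43.1 ± 8.41 CPM (SD, n = 3 each, log2 fold change 0.79, edgeR adjusted p = 0.25, and 0.012 with the block). Groups did not overlap for 3 proteases that were higher, ADAMTS4, ADAMTS15 and ADAMTS1 (14.4 ± 1.88 and 19.7 ± 0.969 CPM, SD, n = 3 each), and for 1 that was lower, ADAMTS9 (2.64 ± 0.276 and 2.09 ± 0.0622 CPM, SD, n = 3 each), beside 8.73% and 14.1% of all tested genes. ADAMTS1 and ADAMTS9 were added to the named genes after their values were seen. Of the 4 link proteins, which fasten such proteoglycans to hyaluronan, only HAPLN3 was tested, at 2.75 ± 0.993 and 3.22 ± 0.796 CPM (SD, n = 3 each, edgeR adjusted p = 0.842).

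The MSI1 iCLIP lists placed many sites in versican and its more abundant relatives, but the replicates seldom shared the nucleotide. In lists 1, 2 and 3 the exons of VCAN held 123, 12 and 28 sites on the sense strand, those of GPC1 224, 10 and 43, and those of SDC1 201, 23 and 57. GPC4 exons held 71, 15 and 13 sites, SDC2 exons 31, 4 and 6, and GPC6 exons 22, 7 and 6. The scarce genes had next to none, with 2, 0 and 0 for CSPG4, 0, 0 and 1 for BGN, and 0 in each list for DCN.

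Per kilobase of exon, SDC1 and GPC1 were among the most densely marked genes. The site density of SDC1 exceeded that of 99.3, 99.2 and 99.5% of all tested genes in the 3 lists, that of GPC1 99.4, 96.9 and 99.2%, and that of VCAN 90.7, 88.7 and 91.3%. A site can be seen only in RNA that is present. Divided by the RNA level per kilobase in the controls, the site density in lists 1, 2 and 3 was 1.10, 0.108 and 0.251 for VCAN, and 1.10, 0.126 and 0.312 for SDC1. It was 2.45, 0.110 and 0.471 for GPC1, and 1.72, 0.0770 and 0.331 with the level taken without control replicate 3. GPC1 thus had the highest ratio of these 3 genes in lists 1 and 3 but not in list 2, and in list 2 its place depended on that library. With the level taken without it, the ratios were 1.11, 0.109 and 0.254 for VCAN and 0.907, 0.104 and 0.257 for SDC1. The order of VCAN and SDC1 in list 2 thus depended on control replicate 3 as well. GPC4 had 0.348, 0.0736 and 0.0637, SDC2 0.382, 0.0493 and 0.0739, and GPC6 0.420, 0.134 and 0.115. GPC4 and SDC2 were below VCAN and SDC1 in each list, whereas GPC6 was below them in lists 1 and 3 only.

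Sites gathered in the last exon. The last exon of VCAN is 16.1% of its exonic length and held 51.2, 66.7 and 75.0% of its exonic sites in lists 1, 2 and 3. For GPC1, GPC4, GPC6, SDC1 and SDC2, whose last exons are 54.8 to 70.4% of the exonic length, the share lay between 83.3 and 100.0% in each list. Over all tested genes 74.7, 85.2 and 86.8% of sense exonic sites lay in last exons, which make up 49.6% of exonic length, so a high share was general. The only exon of a single-exon gene counted as its last. In VCAN the density in list 1 was 31.5 sites per kb in the last exon (63 sites), 6.75 in GAG-alpha (20 sites) and 6.65 in GAG-beta (35 sites). The equal density in the long exons stood beside a read density several times lower in GAG-alpha. In lists 2 and 3 GAG-alpha held 0 and 1 sites and GAG-beta 3 and 4, too few to compare.

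**Figure D5:**
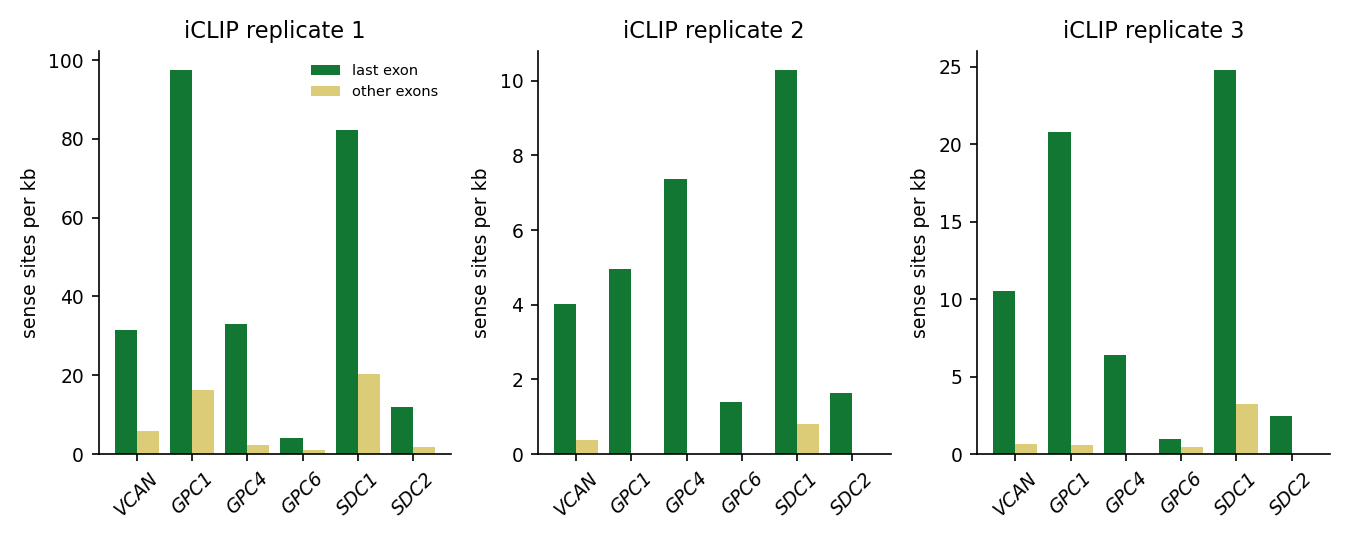
The vertical axes give sense-strand iCLIP sites per kb, with a panel and a scale of its own for each iCLIP replicate, and bars for the last exon and for all other exons of the 6 genes with at least 10 exonic sites in list 1. The last exon has the taller bar for each of the 6 genes in each list, and GPC1 and SDC1 have the tallest in lists 1 and 3.

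MSI1 is known to bind short RNA words that contain UAG. The word TAG, which cannot overlap itself, was counted on the transcript strand of the GENCODE release 29 versican transcripts. It occurred 30 times in the last exon (15.02 per kb), 36 times in GAG-alpha (12.2 per kb), 59 times in GAG-beta (11.2 per kb) and 10 times in the other 12 exons together (4.16 per kb). The mean over transcripts of tested genes was 9.03 per kb, and 99.6% of those transcripts, like 99.6% of windows as long as the last exon, held it at least 1 time. The GC content was 35.1% in the last exon, 41.4% in GAG-alpha and 42.4% in GAG-beta, against a median of 48.3% for transcripts of tested genes. The part of base composition in these word counts was not tested. A match of this kind is a description and does not mark a binding site.

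At the same nucleotide and strand in all 3 lists there was 1 exonic site in the 9 genes, in the last exon of SDC1 (exon 6, chr2:20264126, minus strand, 2052 nt into an exon of 2139 nt). The p-values that the authors gave it were 1, 0.28 and 0.103, none of them low. A shared exonic site was found in 2.35% of tested genes, and 1 of the 8 tested proteoglycan genes cannot be set apart from that share. Exonic sites of list 2 that had a site of list 1 and a site of list 3 within 5 nt were found in 4 of the genes, against 6.44% of tested genes. When 2 of 3 lists sufficed, 5 of the genes had an exonic site, against 18.0% of tested genes. These were 20 sites in GPC1, 16 in SDC1, 5 in GPC4, 4 in VCAN and 1 in GPC6.

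All 4 VCAN sites in 2 lists lay in exon 15, at chr5 positions 82913121, 82913664, 82913665 and 82913670. The latter 3 lie side by side, 208 to 214 nt before the end of the exon, and the pairs of lists that held them differed. All 20 GPC1 sites and all 5 GPC4 sites were also in the last exon, as were 15 of the 16 SDC1 sites. When only sites with the authors' p-value of at most 0.05 were used, 0 were shared by the 3 lists in any of the 9 genes. GPC4, GPC6 and SDC2 had more sense sites in introns than in exons in each list, and GPC6 most of all, with 1508, 194 and 197 in introns that span 1174094 nt. Per kilobase its exons still had the higher density, at 3.10 against 1.28 in list 1. Since no sample without MSI1 or with a control antibody was analysed here, sites are described as deposited, and no level of background in the lists could be measured.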

How the data were processed

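RNA-seq and MSI1 iCLIP of U251 cells were analysed. The RNA-seq files are raw counts per gene and per exon as deposited by the authors, and the iCLIP files are lists of single-nucleotide sites with a p-value per site, which are the authors' own and served only to limit sites within a list. Coordinates are on hg18 (build per the submitters' processing notes). Not given in the sources used here were the aligner, counter, strand setting and peak caller. The labels' protocol covers iCLIP with single-end reads of 50 bases, is attached to the RNA-seq samples too, and says that biological replicates were pooled, whereas the titles give 3 replicates per group.

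Gene counts were tested with edgeR 4.0.16 (quasi-likelihood, TMM, filterByExpr, group alone, 4 residual degrees of freedom) over 13856 genes (Benjamini-Hochberg, threshold 0.05). Exon counts were tested with diffSpliceDGE, and shares of the long versican exons with exact permutation tests (scipy 1.17.1). Exon counts can hold a read more than once where it spans a junction. Sites were assigned to the exons of the deposited exon tables. Alternatives were a replicate block (2 residual degrees of freedom), DESeq2 1.42.0, its size factors, no filter, each library left out, and, chosen after seeing the data, an offset for GC content. GC was taken from the longest GENCODE release 29 transcript, matched by symbol for 87.1% of tested genes. The tests were checked on simulated data with known changes. The gene test recovered 99.0% of 4-fold and 51.0% of 2-fold changes, with 5 false calls among 13694 genes. The exon test recovered 99.0% of 4-fold changes, with 182 false calls among 13783 exons, nearly as many as the exons that were changed. The simulated exon counts were independent draws with a fixed spread and no outlying library. These rates therefore do not carry over to the libraries here, in which the exon test was conservative.

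Replicate numbers come from the titles. Within each replicate number, the control's and the knockdown's departures from their group means had correlations of 0.318, 0.732 and 0.751, all above 0.1, so the numbers were taken to pair the libraries, although control replicate 1 correlated more with knockdown replicate 2 (0.494). The genes and lists were chosen with earlier results of these data known. Named genes are MSI1, the 9 genes, in each list those past the threshold or else the 2 with the lowest p, the 5 most like VCAN, and per gene the exon with the lowest p. Marker genes were named as well, as were the exons and sites described.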

Additional observations from a re-analysis of the deposited data

How the results depend on the processing

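Precision was limited by 3 libraries per group, of which control replicate 3 deviated with GC content. Under a replicate block, the counts past the threshold were 2398 genes in all, 2 of the proteoglycan genes, 16 genes of the 7 lists and 10 exons, and the block changed no other call among the 9 genes. DESeq2 called 798 genes in all and 6 genes of the lists, and DESeq2 size factors in edgeR and the fit without a filter called 1 of the lists each, the DSE call being lost. The GC offset called 2525 genes, 3 of the proteoglycan genes and 25 of the lists, and with the replicate block added 4867, 4 (GPC6 among them, adjusted p = 0.0302) and 35, while the log2 fold change of CSPG4 was -0.032 and -0.054. The GC trend was fitted to the same libraries, so these counts may be too high. Leaving out each library in turn gave 0 to 1028 genes, 0 to 1 of the proteoglycan genes, 0 to 9 of the lists and 0 to 1 exons. The high values for genes, lists and exons came without control replicate 3. The log2 fold change then ranged from 1.02 to 1.21 for VCAN, from -0.15 to 0.59 for BGN, from -0.18 to 0.67 for GPC1, from -0.030 to 0.18 for GPC6 and from -0.018 to 0.47 for CSPG4. GPC4, SDC1 and SDC2 kept their sign under all 12 alternatives. The difference in GAG-alpha share ranged from -0.53 to 0.90 percentage points and that in its density ratio from -0.040 to 0.032, whereas both GAG-beta differences stayed negative under every alternative run. The number of proteoglycan genes with a shared exonic iCLIP site was 0 at an authors' p of at most 0.05, 5 in at least 2 of 3 lists, 4 within 5 nucleotides, and 2 to 5 without a list. Their shared sense sites, introns included, numbered 0, 68, 22, and 5 to 50. The cause of these shifts was not tested.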

Other observations

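CSPG4 had 49 iCLIP sites in list 1, of which 45 lay on the strand opposite to the gene and 4 on its own. Among all sites of list 1 in genes of the deposited tables, antisense sites made up 4.27%. No other gene of the deposited tables overlapped CSPG4, and lists 2 and 3 held 1 antisense and 0 sites in it, so the antisense sites rest on 1 library.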
